A study of Drosophila melanogaster with 2 samples.

Results

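The microRNA and small interfering RNA (siRNA) machinery of Drosophila melanogaster was examined for binding of Ovo, a zinc-finger protein that regulates transcription and is needed in female germ cells. The set holds 9 genes, listed by name for their roles, with earlier results of these data known and no measured value in the rule: drosha, pasha, Dcr-1, loqs, Dcr-2, r2d2, AGO1, AGO2 and gw. All 9 were found in the Ensembl BDGP6 annotation, among 13945 protein-coding genes on the 6 chromosome arms.

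MicroRNAs are cut from nuclear hairpin transcripts by the RNase III enzyme Drosha with its partner Pasha. The resulting precursors are cut in the cytoplasm by Dcr-1 with Loqs, loaded into AGO1, and used to silence mRNAs through the GW182 protein encoded by gw. In the siRNA branch, long double-stranded RNA is cut by Dcr-2, and R2D2 helps Dcr-2 to load the products into AGO2, the slicing Argonaute of antiviral and transposon defence. In the ovary, Dcr-1, Loqs and AGO1 are known from genetic work to maintain germline stem cells.

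Chromatin came from whole adult females of 1 transgenic line, in which Ovo carries GFP at its C terminus, and was precipitated with an antibody against GFP after sonication. Both samples, biological replicates numbered 1 and 4, belong to this single group, and the flies' age is given as unknown. No condition was contrasted, so the data give where the tagged protein was recovered and how well the replicates repeat it. Each replicate has its own relaxed peak list on genome build dm6, as deposited by the authors. They also gave a relaxed list from the combined reads, called pooled here, and a shorter thresholded list. Each relaxed list held 30000 peaks and the thresholded list 4477. The thresholded list comes from both replicates together, so its values have no SD. A control experiment is named, but its data and those of flies without the tag were not analysed here. Gene activity and the bound tissue were not measured. Each peak carries the authors' score, an enrichment over a control alignment, which was used only to rank peaks within a list (rank 1 is the highest score). The lists hold no read counts, so the depth is unknown.

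Of the 9 genes, 3 had a thresholded peak summit within 500 bp of a transcription start site (TSS): AGO1, r2d2 and gw. Among all protein-coding genes 23.5% had one, so the count of 3 of 9 lies close to that background. The peaks of these 3 genes stood high in the list. Ranked by the best promoter peak of each gene, AGO1 was number 260, r2d2 number 371 and gw number 613 of the 3283 genes with one. The scores were 287, 251 and 207, beside a median of 128 over those 3283 genes. All 3 genes kept a promoter peak when only the 1000 peaks of highest score were used, a list in which 6.19% of all genes had one. The r2d2 values rest on a summit 178 bp from its TSS and 89 bp from that of Herp, a neighbouring gene. The summit nearer to r2d2 than to Herp had a score of 101 and rank 2883 in the thresholded list.

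The other 6 genes were not alike. A summit below the threshold lay within 500 bp of a TSS of drosha and AGO2 in the pooled list and in both replicate lists, a pattern shown by 21.0% of all genes. Those of pasha, loqs and Dcr-2 were found in only some of the relaxed lists, and Dcr-1 had none. In the pooled list 7 of the 9 genes had a promoter summit, beside 54.8% of all genes. In the replicate 1 list 6 of 9 had one (54.8% of all genes), and in the replicate 4 list 7 of 9 (53.8%). The signal comes from whole flies, so strong binding in few cells and weak binding in many cannot be told apart.

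**Figure D1:**
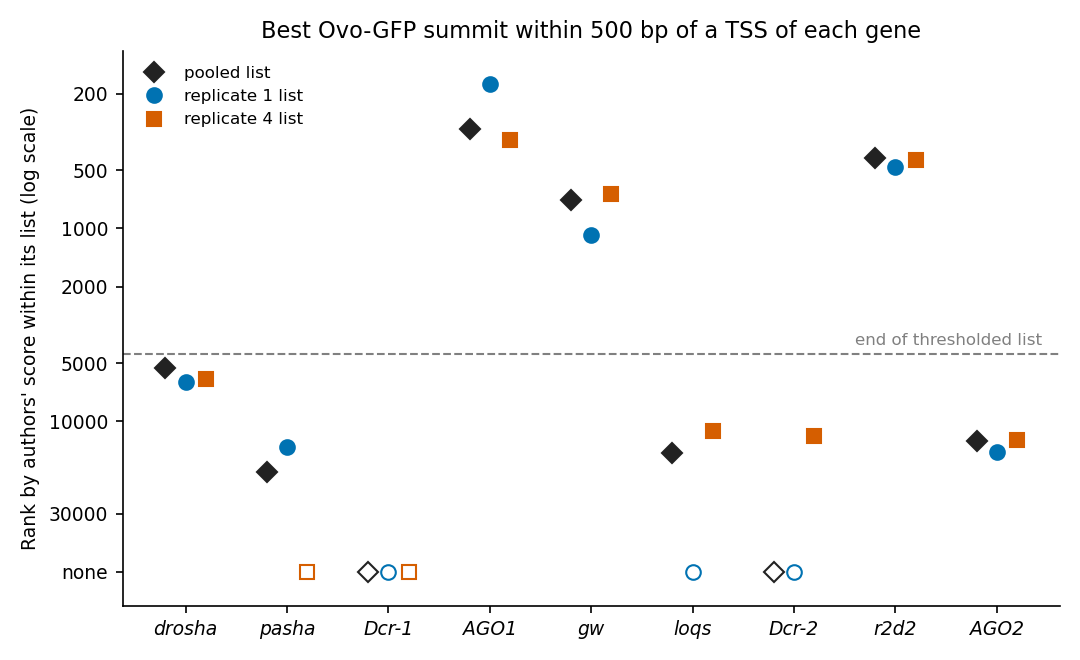
Rank (log scale, best at the top) of the best summit within 500 bp of a TSS for each of the 9 genes, in the pooled list and in the lists of replicates 1 and 4; open symbols mark lists with no such summit, and the dashed line is the end of the thresholded list at rank 4477. AGO1, r2d2 and gw lie above the line in all 3 lists, drosha lies just below it, and Dcr-1 has no summit in any.

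The number of annotated start sites varied within the set. AGO1 and pasha have 3 distinct TSSs each, AGO2, r2d2 and gw have 2, and Dcr-1, Dcr-2, loqs and drosha have 1. None of the 4 genes with 1 TSS had a thresholded promoter peak, and 3 of the 5 with more than 1 did. Over all protein-coding genes the shares were 17.3% of those with 1 TSS and 40.8% of those with 2 or more. Counted by TSS, 6 of the 16 distinct start sites of the set had one in the thresholded list so near, beside 22.5% of 19607 over the genome. These 6 sites belong to the same 3 genes, AGO1, r2d2 and gw. Both sites of r2d2 were counted for the same 2 peaks, and both sites of gw for the same peak.

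When the gene span and 2 kb either side were searched, 5 of 9 genes held one from the thresholded list (36.8% of all genes). Inside the gene span the count was 3 of 9 (13.0% of all genes). The genes added by the flanks were loqs and pasha, which had a summit in the wider window but none at their own TSS, as did 13.3% of all genes. Each of those summits lay at the promoters of other genes.

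The nuclear step comes first. Pasha is the double-stranded RNA-binding partner of Drosha, and its gene lies at chr3R:31617977-31622217 on the plus strand. Its first TSS is at 31617977, the others at 31618428 and 31618989. The nearest thresholded peak (chr3R:31615998-31616437, score 227, rank 565) had its summit at 31616218, 1759 bp upstream of the first pasha TSS. It ranked 447 in replicate 1 (score 111) and 743 in replicate 4 (score 118). That summit stood 58 bp upstream of the TSS of Mnat9 and 85 bp upstream of the TSS of CG1792, which run in opposite directions from it. The peak is therefore placed at a divergent promoter of neighbouring genes and not at one of pasha.

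The sequence around this summit is shown because it holds a match to TAACNGT, the core of the known Ovo site (in capitals), searched on both strands. It is the plus strand of dm6 at chr3R:31616149-31616314, from the RefSeq copy of the Release 6 genome, and the summit is at base 70. The centre of the match lay 90 bp from the summit, just past the TSS of CG1792.
pasha upstream peak: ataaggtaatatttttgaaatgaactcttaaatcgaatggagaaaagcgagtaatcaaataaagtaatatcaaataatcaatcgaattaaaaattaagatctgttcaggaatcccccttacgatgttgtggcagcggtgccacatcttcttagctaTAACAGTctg

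At pasha itself only a weak summit was listed, at 31618951, 38 bp upstream of the TSS at 31618989, which starts the transcript pasha-RB. Its score was 28.1 and its rank 18368 in the pooled list. Replicate 1 had a summit 36 bp upstream of that TSS at rank 13556, and replicate 4 had none within 500 bp. Transcript pasha-RB has its own start codon and encodes 580 residues, whereas pasha-RA and pasha-RC encode 642.

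The drosha gene, which encodes the nuclear RNase III of microRNA maturation, lies at chr2R:7932429-7936840 on the plus strand with a single TSS. It came nearest to the threshold among the genes without a thresholded peak. Its pooled summit, at 7932446 in the 5′ UTR, was 17 bp downstream of the TSS and had a score of 66.4 and rank 5310, where the thresholded list ended at rank 4477 and a score of 74.9. Replicate 1 placed the summit 18 bp upstream of the TSS (score 27.3, rank 6243) and replicate 4 8 bp upstream (score 34.4, rank 6055). The replicate ranks were thus close, and both lay outside the best 4477 of their lists. The gene rnh1 starts 49 bp away on the opposite strand, so the summit belonged to both promoters. A second pooled summit (score 47.3, rank 8347) lay 1511 bp upstream of the drosha TSS and 98 bp downstream of that of PIG-X. Replicate 4 had it at the same base at rank 4985, and the nearest summit of replicate 1, 1388 bp upstream of drosha, ranked 15125.

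The dicing step of the microRNA branch had no Ovo-GFP peak of its own at the threshold. Dcr-1, the Dicer of the microRNA branch, lies at chr3R:22734007-22741091 on the minus strand, with a TSS at 22741091 and the TSS of CG6985 59 bp away on the opposite strand. No summit of the pooled list or of either replicate list fell in the gene or within 2 kb of it. Of all protein-coding genes 9.17% were empty in that way. The nearest thresholded summit was 9.74 kb from the Dcr-1 TSS, at the promoters of Usp12-46, CG7029 and rumi.

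Loqs binds double-stranded RNA and works with both Dicers through different isoforms, all of which start from 1 TSS at the gene (chr2L:13382652-13385671, plus strand). The 6 annotated transcripts encode between 359 and 465 residues. A strong peak (chr2L:13387182-13387621, score 269, rank 357) lay past the 3′ end of loqs, 4750 bp from its TSS. It ranked 431 in replicate 1 (score 113) and 347 in replicate 4 (score 156). The replicate ranks were close here, but the summit stood 90 bp upstream of the TSS of Ing5 and 169 bp upstream of the TSS of CG7099, a divergent pair. At the loqs promoter the pooled list had only a summit 461 bp upstream of the TSS (score 32.2, rank 14530). Replicate 4 had it at 494 bp upstream (rank 11254), and replicate 1 had none within 500 bp.

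The siRNA branch differed between the Dicer and its partner. R2D2, which senses the more stable end of an siRNA duplex, had 2 thresholded peaks at its promoter (gene at chr2L:7800147-7802098, plus strand, TSSs at 7800147 and 7800382). The stronger peak (chr2L:7799749-7800188, score 251, rank 430) had its summit 178 bp upstream of the first TSS. It ranked 483 in replicate 1 (score 108) and 442 in replicate 4 (score 144), with the replicate summits 46 bp apart. The weaker peak (chr2L:7799964-7800403, score 101, rank 2883) had its summit 37 bp inside the 5′ UTR. Replicate 4 ranked it 2852 (score 57.8) and replicate 1 ranked it 5725 (score 29.1), so in replicate 1 it fell outside the best 4477 peaks. The intervals overlapped by 225 bp, the summits were 215 bp apart and the stronger score was 2.49 times the weaker.

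Herp shares this promoter. Herp has a TSS at 7800058 on the minus strand, and the stronger summit lay 89 bp downstream of it, in an annotated 5′ UTR of Herp. The weaker summit was nearer to r2d2 than to Herp, 126 bp upstream of the Herp TSS. All 3 transcripts of r2d2 use the same start codon at 7800503 and encode 311 residues. The 25 bases around each r2d2 summit, which is base 13 of each, are shown because they place the summits on the shared promoter; neither holds the Ovo core site. They are the plus strand of dm6 at chr2L:7799957-7799981 and chr2L:7800172-7800196.
r2d2 stronger summit: acagttggaaaatattaaagtcgtt
r2d2 weaker summit: acacttcagacgttgaactttgaat

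Dcr-2, the Dicer of the siRNA branch (chr2R:17574979-17581525, minus strand, 1 TSS at 17581525), had no thresholded summit within 2 kb. Within 500 bp of its TSS only replicate 4 had a relaxed summit, 433 bp inside the gene (score 21.5, rank 11961). The strongest pooled summit within 2 kb (score 58.1, rank 6335) lay past its 3′ end, within 500 bp of the TSSs of CG42239, UQCR-6.4 and Rab4. The replicate 1 summit within 100 bp of that pooled summit had a score of 21.4 and rank 8943, and the replicate 4 one had rank 7695. Another replicate 1 summit, further than 100 bp from the pooled one, ranked 4280, inside the best 4477.

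AGO1, the Argonaute loaded with microRNAs, had the highest promoter score of the set and thresholded peaks at 2 of its 3 TSSs. The gene spans 14.7 kb at chr2R:13943387-13958089 on the minus strand. The distal peak (chr2R:13958245-13958359, score 287, rank 307) had its summit at 13958268, 179 bp upstream of the TSS at 13958089, from which AGO1-RC and AGO1-RD start. It was 115 bp wide, whereas 94.2% of thresholded peaks had a fixed width of 440 bp. It ranked 179 in replicate 1 (score 153) and 567 in replicate 4 (score 129). No other gene has a TSS within 500 bp of that summit.

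The internal AGO1 peak (chr2R:13953929-13954368, score 274, rank 336) had its summit at 13954149. It lay 124 bp upstream of the TSS at 13954025, from which AGO1-RB starts, and in an intron of the longer transcripts. Replicate 1 ranked it 386 (score 118) and replicate 4 ranked it 349 (score 156). The order of the AGO1 peaks thus differed between the replicates, the distal peak leading in replicate 1 and the internal one in replicate 4. The internal summit was nearer to mRpL53, which encodes a mitochondrial ribosomal protein, and to CG33155, which share a TSS 46 bp away on the opposite strand. AGO1-RB has its own start codon and encodes 950 residues, whereas the transcripts from the upstream TSSs encode 984. At the middle TSS, 13955680, from which AGO1-RA starts, the pooled list had a weak summit 65 bp upstream (score 30.4, rank 16057). Replicate 1 had one 52 bp upstream (score 14.7, rank 16503), and replicate 4 had none within 500 bp.

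Between the distal and the middle TSS, 2 summits lay just below the threshold, one in an annotated 5′ UTR 835 bp downstream of the distal TSS and one in an intron 1157 bp downstream. In the pooled list they had scores of 69.9 and 67.1 and ranks 4932 and 5229. Replicate 1 ranked them 7292 and 4862, and replicate 4 ranked them 4590 and 5529. Another thresholded peak within 2 kb of AGO1 (score 180.0, rank 984) lay past its 3′ end and 112 bp upstream of a TSS of shot, which encodes a cytoskeletal crosslinker. Of all genes 4.17% had 2 or more thresholded promoter summits, as did AGO1 and r2d2.

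AGO2, the siRNA Argonaute, had no thresholded summit within 2 kb of its span (chr3L:15554113-15561042, plus strand). A weak summit lay at its first TSS in every relaxed list, 31 bp downstream in the pooled list (score 35.0, rank 12606), 63 bp upstream in replicate 1 (score 16.0, rank 14312) and 65 bp downstream in replicate 4 (score 21.0, rank 12524). These ranks lie near the middle of lists of 30000. The second TSS, at 15556823, starts AGO2-RE, which encodes 787 residues against 1214 and 1217 for the others, and had no summit within 500 bp in these lists. A second weak summit, over coding sequence, recurred in the relaxed lists at 2336 bp (pooled and replicate 4) or 2344 bp (replicate 1) downstream of that TSS. The nearest thresholded summit was 6.68 kb from a TSS, at SCCRO and CG7739.

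Among the Argonautes of the Piwi-interacting RNA pathway, piwi (score 154) and aub (132) had a thresholded promoter peak and AGO3 had none. The AGO1 score was thus the highest among these Argonaute genes.

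The gw gene encodes GW182, which links AGO1 to deadenylation and decapping, and lies on chromosome 4 (chr4:649041-660608, minus strand). Its thresholded peak (chr4:659966-660405, score 207, rank 711) ranked 1081 in replicate 1 (score 77.5) and 666 in replicate 4 (score 122), with replicate summits 3 bp apart. The summit, at 660186, lay 203 bp upstream of the TSS at 659983, from which gw-RA, gw-RE and gw-RF start. It was also 422 bp downstream of the TSS at 660608, from which gw-RB and gw-RJ start, in an intron of those transcripts. All 5 transcripts use the start codon at 658337. A further weak summit was listed 193 bp downstream of the upper TSS in the pooled list (score 23.2, rank 26180) and at 177 bp in replicate 1. No other gene has a TSS within 500 bp of the thresholded summit.

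The gw sequence is shown because this peak lies at gw alone and holds a core site off the summit. It is the plus strand of dm6 at chr4:660086-660286, with the summit at base 101 and the match in capitals at 660098 to 660104. The centre of the match lay 85 bp from the summit and 118 bp upstream of the lower TSS.
gw promoter peak: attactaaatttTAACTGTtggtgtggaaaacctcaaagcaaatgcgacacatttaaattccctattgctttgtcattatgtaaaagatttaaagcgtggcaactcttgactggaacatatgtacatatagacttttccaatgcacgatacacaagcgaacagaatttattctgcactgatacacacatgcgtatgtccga

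**Figure D2:**
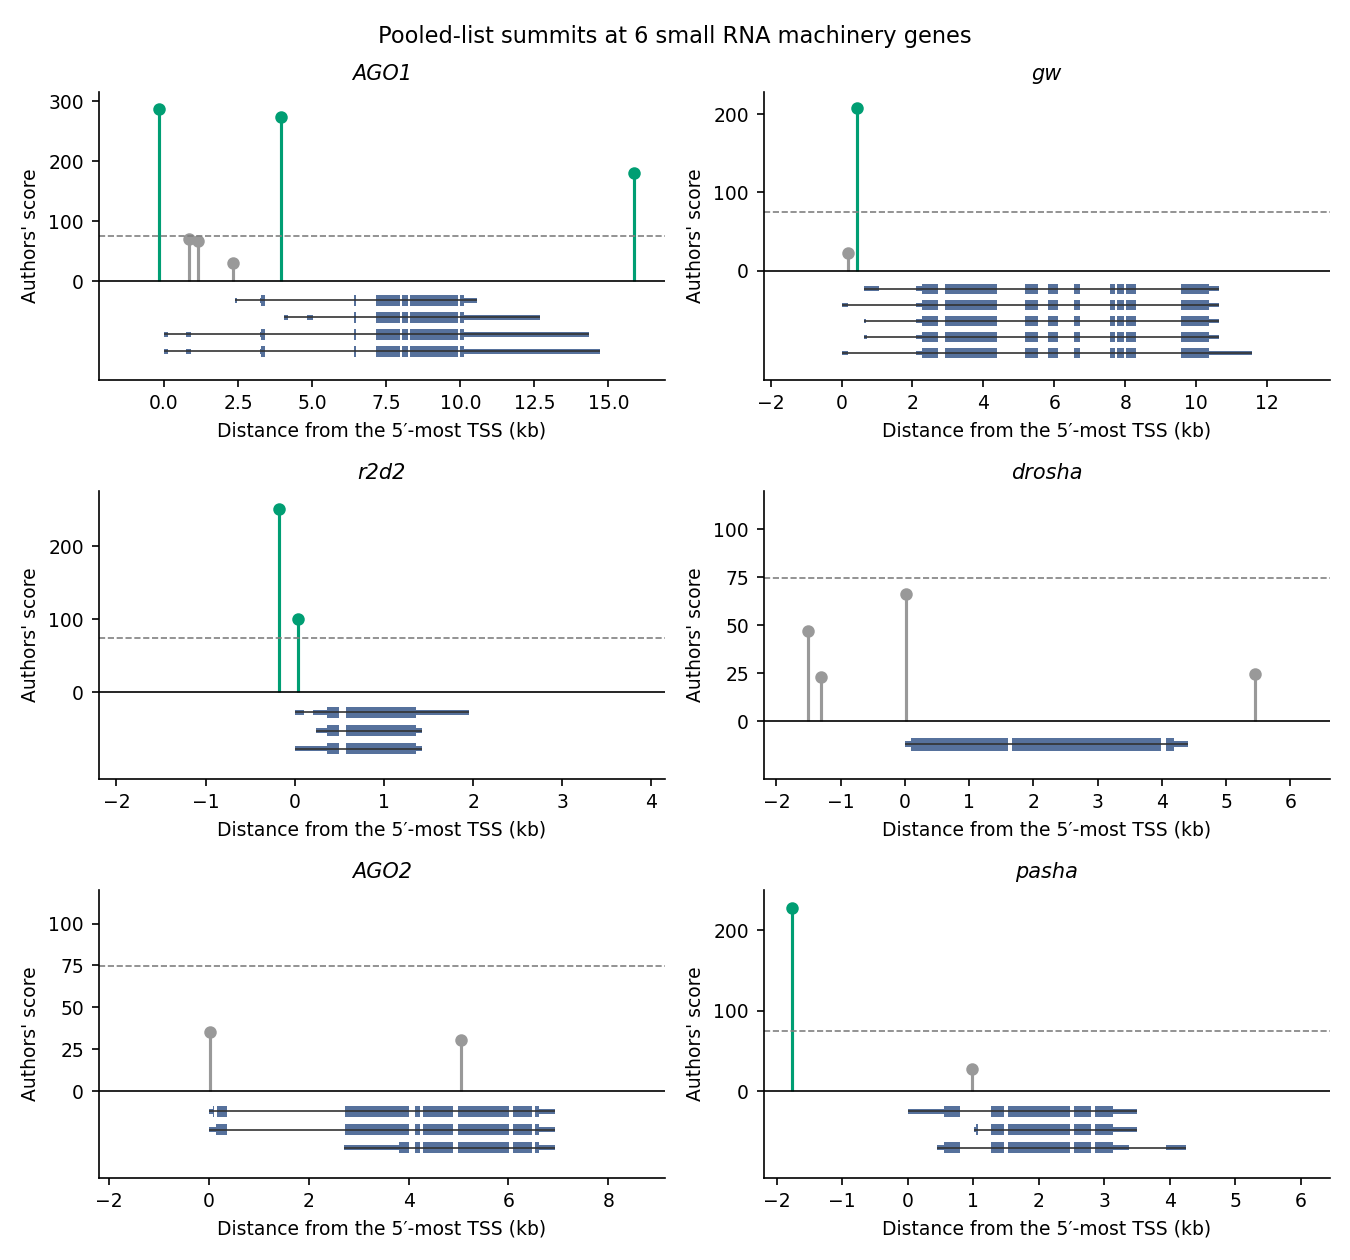
Authors' scores of pooled-list summits (vertical lines with points) along 6 of the genes, by distance in kb from the most upstream TSS in the direction of transcription; green marks thresholded summits, grey weaker ones, the dashed line the lowest thresholded score of 74.9, and the blue models below are annotated transcripts with coding exons drawn thick. AGO1 shows a summit at each end of its 5′ region, gw and r2d2 at their promoters, and drosha a summit of 66.4 just under the line.

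The Ovo core site was within 50 bp of the summit in 1 of the 5 thresholded promoter peaks of the set, the distal AGO1 peak, beside 13.7% of all 2851 promoter peaks. There the match was at chr2R:13958287-13958293 on the minus strand, its centre 22 bp from the summit and 201 bp upstream of the TSS. Searched over the whole peak, 2 of 5 held it, those of the distal AGO1 promoter and of gw, beside 30.0% of all promoter peaks. The DNA replication-related element (DRE, TATCGATA) and Motif 1, both sites of housekeeping promoters, were within 50 bp of none of the 5 summits, and of 3.79% and 1.33% of all promoter summits. The TATA box pattern (TATAAA) was near 1 of 5, the weaker r2d2 summit, and near 15.1% of all. At r2d2 the match was centred 69 bp downstream of the first TSS. The GAGA factor site (GAGAG) was near 1 of 5, the distal AGO1 summit, as 2 overlapping matches outside that narrow peak, and near 16.1% of all. A match describes letters in these windows and is not evidence of a bound site.

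Agreement of the replicate ranks varied between the member peaks. For all 8 thresholded summits within 2 kb of a listed gene, each replicate list had a summit within 100 bp, as did 92.0% of the 4477 thresholded peaks in both lists. The ranks of the 2 replicates differed by 1.09-fold at the stronger r2d2 peak, 1.11-fold at the internal AGO1 peak, 1.62-fold at gw, 2.01-fold at the weaker r2d2 peak and 3.17-fold at the distal AGO1 peak. Over the thresholded peaks found in both lists the median was 1.55-fold and the upper quartile 2.18-fold. The gw peak, the weaker r2d2 peak and the distal AGO1 peak lay above that median. Only the distal AGO1 peak lay above that quartile, with the better rank in replicate 1. At the peaks of neighbouring genes the fold was 1.24 near loqs, 1.66 near pasha and 2.04 past the 3′ end of AGO1.

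**Figure D3:**
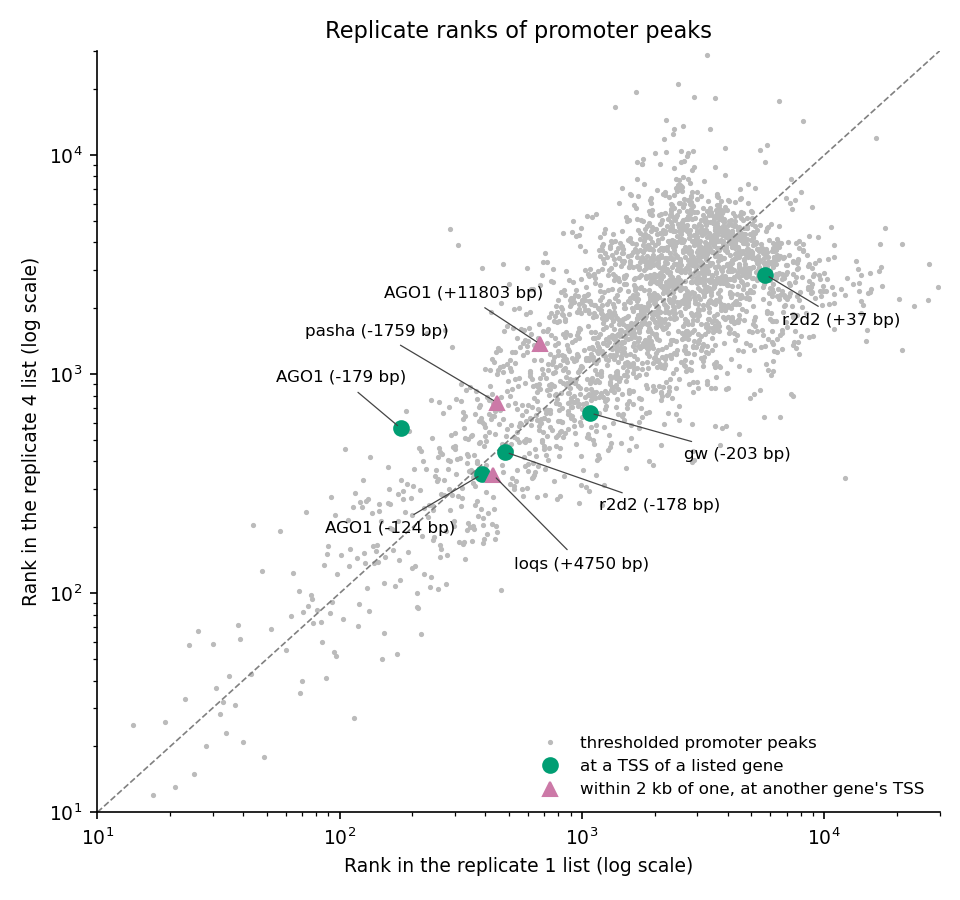
Rank in replicate 1 (x axis) against rank in replicate 4 (y axis), both on log scales from 10, for thresholded promoter peaks with a summit in both lists (grey); green circles are peaks at a TSS of a listed gene and pink triangles peaks within 2 kb of one but at another gene's TSS, each with its signed distance to the nearest TSS of the listed gene. Peaks ranked better than 10 are off the plot. Of the labelled peaks the distal AGO1 peak (179 against 567) lies furthest from the dashed line of equal ranks.

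Several promoters of the set are shared with neighbours, which limits what a peak says about the listed gene. For AGO1, Dcr-1, drosha and r2d2 another protein-coding gene has a TSS within 1 kb on the opposite strand. How many of all genes have such a neighbour was not counted. Of the 3 genes with a thresholded promoter peak, AGO1 (at its internal TSS) and r2d2 shared one with another gene, as did 57.7% of all genes with such a peak. The distal AGO1 peak and the gw peak were at 1 gene each. In score, the genes next above AGO1 were crp (287.2) and pdgy (287.5), and those next below were yps (286) and CG9399 (285).

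Genes that work with this machinery were counted in the same way. Of 41 partner genes in 7 roles, 26 had a promoter peak by the same rule (63.4%, beside 23.5% of all genes). The median score of the best promoter peak was 110 over these 26 genes and 128 over all genes with one. The 3 listed genes scored 287 (AGO1), 251 (r2d2, from a summit nearer to Herp) and 207 (gw). With the 1000 peaks of highest score 4 of the 41 partners had one, beside 6.19% of all genes, so the partners' count then lay near the background. No test was made on these lists, whose genes were chosen with earlier results of these data known.

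The counts by role were as follows. Of the chaperones that load Argonautes, 4 of 5 had a promoter peak, led by Hsp83 (score 362), which encodes Hsp90, whereas Stip1 had none. Of the proteins associated with Argonaute complexes 5 of 6 had one, led by brat, a translational repressor (143), and me31B had none. Deadenylation and decapping factors that act after GW182 had 9 of 15, led by tral (309), PAN3 (288) and Pop2, a deadenylase of the CCR4-NOT complex (158). In that role DCP1 had none. The tral summit was nearer to the TSS of sti, a neighbouring gene, than to that of tral, and the Pop2 summit was shared with CG6928. Of the cap-binding and export factors, Ranbp21, the exporter of microRNA precursors (221), and Cbp20 (133) had one, and Ars2 had none. Their summits also lay within 500 bp of a TSS of Elys (at Ranbp21) and CG7218 (at Cbp20). The siRNA helpers had 3 of 6, with scores from 81.2 to 88.9, and blanks had none. Of the enzymes that trim or tail small RNAs, Nbr had one (108) and Tailor none. Of the 26 best promoter peaks 2 had the Ovo core site within 50 bp of the summit, those of Nbr and Rga, beside 13.7% of all promoter peaks. The Nbr summit was nearer to the TSS of Noc2, and the Rga summit nearer to that of Atu. For the Nbr peak replicate 1 had no matching summit. Nbr, Rga and aub were named after their values were seen.

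**Figure D4:**
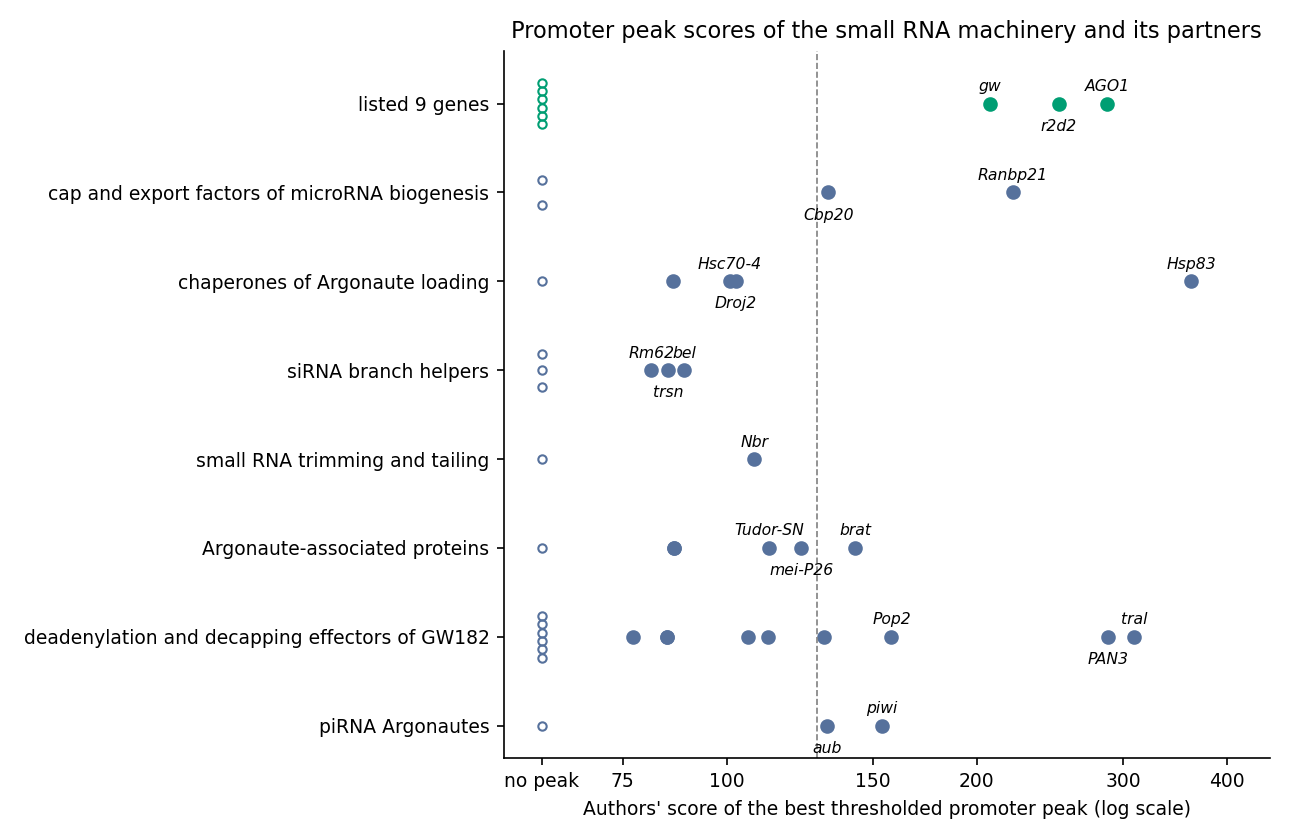
Authors' score of the best thresholded promoter peak (log scale) for the 9 listed genes (green) and 41 partner genes by role (blue), with genes without a peak as open circles at the left; the dashed line is the median of 128 over all genes with a promoter peak. AGO1, r2d2 and gw lie to the right of the line, and of the partners Hsp83, tral (from a summit nearer to sti) and PAN3 reach the highest scores.

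The ovo gene itself had 2 thresholded promoter summits (best score 385). The known Ovo target otu had 1, with a score of 122, below the median of 128 over all genes with one. Because 23.5% of all genes had such a peak, its presence at ovo and otu is not a check of the label. Among the markers of adult tissues, nanos of the germline, with 2 summits (147), and elav of neurons (356) had a promoter peak, whereas vas, bam, tj, Fas3, Yp1, nSyb and Mhc had none, and expression was not measured.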

How the data were processed

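ChIP-seq peak lists from 2 replicates of 1 group were used. Per the deposited text records, relaxed peaks were called with a control alignment, and an irreproducible discovery rate (IDR) step on the replicates gave the thresholded list. Which peak caller and IDR limit were used is not given in the sources used here. The authors deposited for each peak an enrichment score, a -log10 q-value (not used for ranking) and a summit position. The 4 lists on dm3 were not used. Coordinates are 1-based on dm6, and every peak ends within the Release 6 arms.

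TSSs were the 19607 distinct starts of protein-coding transcripts in Ensembl release 115. Peaks were ranked by score within a list and counted for every gene with a TSS within 500 bp of the summit. Replicate summits were matched within 100 bp. Without replicate 4, or 1, the 4477 best peaks of the other list were used. Motifs were searched on both strands. No test was made, since there is no contrast. Counting was tested on simulated data with Python 3.11.15, numpy 2.4.6 and pandas 2.3.3.

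The 9 genes and the partner list were chosen with earlier results of these data known. The partner genes named by rule are the 8 with the highest score and the first in the alphabet without a peak in each role. Other genes are named where a summit lies within 500 bp of their TSS, and the 2 next above and below AGO1 in score. Of the 41 symbols 5 were matched through synonyms.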

Additional observations from a re-analysis of the deposited data

How the results depend on the processing

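The count of 3 of 9 genes with a thresholded promoter peak was the same with TSS windows of 250 and 1000 bp, with any overlap of the peak interval, with the most upstream TSS only, with the 1000 best peaks, without replicate 4, without replicate 1, and with the nearest gene only (chosen after seeing the data). It was 1 with a window of 100 bp, where AGO1 and gw dropped out (11.7% of all genes), and 7 with the whole pooled list (54.8%). Partner genes numbered 26, but 15 with the window of 100 bp (11.7% of all genes) and 4 with the 1000 best peaks (6.19%). The partner count was 23 without replicate 4 (22.7% of all genes) and 21 without replicate 1 (23.4%). With the nearest gene only it was 20 (18.0%). The 5 genes with a summit within 2 kb became 3 in the gene span only (13.0% of all genes) and 8 with 5 kb either side (49.7%). In the whole pooled list they were 8 (82.3%). These windows and lists are smaller or larger. Without replicate 4 the count was 6 (36.4% of all genes), without replicate 1 it was 5 (36.5%), and with the 1000 best peaks it was 5 (11.6%). The core site was at 1 of 5 promoter summits (13.7% of all promoter peaks), 2 with a window of 100 bp (20.0%), 3 with the shorter pattern AACNG (63.1%), and 2 over the whole peak (30.0%). No paired analysis was possible because there is 1 group. Depth is unknown, so a gene without a peak is one without a listed summit, not one shown to be unbound.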
